A study of Mus musculus with 4 samples.

Results

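The subject is 74 genes of collagen chains, laminin chains and integrin subunits, taken by symbol from the 23278 genes of a table of RNA levels in mouse retina. Every gene whose symbol marks it as a collagen chain, a laminin chain or an integrin alpha or beta subunit was taken. The vascular basement membrane genes Col4a1, Col4a2, Lama4, Lamb1 and Lamc1 and the microglial integrin gene Itgam were left out. The rule used symbols and no measured value, and gave 41 collagen, 8 laminin and 25 integrin genes.

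RNA came from whole retinas at postnatal day 10 (P10), with 1 library for each of 4 genotypes. The first library was from mice labelled WT, and the knockout library from NdpKO mice, which lack the secreted ligand Norrin. The stabilized library was from Ctnnb1flex3/+;Pdgfb-CreER mice, and the stabilized knockout library from NdpKO;Ctnnb1flex3/+;Pdgfb-CreER mice. Ctnnb1flex3 is an allele of the beta-catenin gene that Cre recombination turns into a stabilized form. Pdgfb-CreER is a tamoxifen-inducible Cre expressed in endothelial cells, so the change is aimed at blood vessels and not at the neural retina. Mice of all 4 genotypes, WT included, were injected with 20 ug of 4HT at P3, and all were of a mixed strain containing at least C57BL6 and 129. Each library pooled 3 RNA batches, and a batch held 4 to 8 retinas from 2 to 4 mice. Pooling leaves no spread between animals, so differences cannot be set against replicate error and p-values are left out.

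Collagens are trimers of chains that share a glycine-rich triple helix. Fibrillar collagens build fibres, network collagens build sheets and filaments around vessels, and fibril-associated collagens decorate fibres. Laminins are trimers of an alpha, a beta and a gamma chain and form, together with collagen IV, the basement membrane that lies under endothelium, around pericytes and at the inner surface of the retina. Integrins are pairs of an alpha and a beta subunit by which cells hold on to these proteins. In retina, the collagens of types II, IX and XI are best known from the vitreous, while collagens III, V, VI and XVIII are known from vessel walls.

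Levels are FPKM, which correct fragment counts for gene length and for library size, each with the interval the authors deposited for it. The sources used here do not state the level of that interval, which describes the estimate within 1 library. Ratios are log2 ratios of FPKM plus 0.5, which understates the change of low genes. A gene was called at a ratio of at least 1.5-fold (0.58 on the log2 scale) if its mean over the 4 libraries was at least 1 FPKM, as in 13150 genes. Of the 74 genes 30 reached that mean, 18 collagens, 3 laminins and 9 integrins, and the other 44 are described by their levels and intervals. Itga7 was the 1 gene among the 30 that lay under 1 FPKM in some libraries. It did so in both libraries without stabilization and reached the mean only through the stabilized ones.

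The whole-series checks were as follows. Deposited FPKM summed to between 405525 and 427109 per library, and read totals were not among the data used. Around the 30 genes the upper bound lay a median of 19.0% to 20.6% above the value, depending on the library. Around the 44 lower genes it lay a median of 33.7% to 36.5% above it. Ndp was at 2.98 and 2.35 FPKM in the WT and stabilized libraries and lower, at 0.873 and 0.869 FPKM, in both libraries labelled NdpKO. The retinal neuron list was at summed levels of 3107 to 3443 FPKM in every library, so the labelled tissue carried its markers. Xist was at 135 and 130 FPKM in the libraries with intact Ndp and at 1.25 and 1.28 FPKM in the knockouts. The Y-linked Ddx3y showed the reverse, so Ndp genotype and sex cannot be told apart.

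Stabilization of beta-catenin was accompanied by higher RNA of 7 collagen genes and of 1 collagen receptor gene, on both Ndp backgrounds. The set held the collagen V chain Col5a3, the multiplexin Col18a1, the collagen VI chains Col6a2 and Col6a3, the transmembrane collagen Col17a1, the fibrillar chains Col3a1 and Col5a2 and the integrin subunit Itga1. In each of these 8 genes the deposited intervals of the libraries with and without stabilization were apart, upward, in both pairs. Of the 12 most abundant of the 74 genes, 9 had overlapping intervals in both pairs, and Col18a1, Col2a1 and Itga3 did not. Among all 13150 genes of at least 1 FPKM, 1.76% and 1.26% were apart upward in the pairs with and without Ndp. Downward the shares were 1.57% and 0.487%.

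Of the 30 genes with a mean of at least 1 FPKM, 5 were at least 1.5-fold higher in the stabilized library than in WT, where 1.67% of all tested genes were. None was 1.5-fold lower, where 1.71% of all tested genes were. Of the stabilized knockout against the knockout, 4 of the 30 were higher, against a background of 1.76%, and 0 lower, against 0.920%. Itga7, which reached the mean of 1 FPKM only through the stabilized libraries, is among the 4, just at 1.5-fold (0.59). It is also among the genes apart by intervals in that pair. The median log2 ratio of the 30 was 0.22 in the first pair and 0.17 in the second, beside -0.02 and 0.03 for all tested genes. The pairs share no library. In both pairs at once, 2 of the 30 genes were 1.5-fold higher, where 0.730% of all tested genes were, and 0 were lower, where 0.304% were. By the deposited intervals 8 of the 30 were apart upward in the pair with Ndp (1.76% of tested genes) and 6 in the pair without (1.26%), and 0 downward in either (1.57% and 0.487%). Further, 4 of the 30 were apart upward in both pairs, against 0.684% of tested genes, and 0 downward, against 0.213%. Among the 44 genes under 1 FPKM another 4 had intervals apart upward in both pairs, where 0.838% of the 6444 genes of the table under that mean and above 0 did, and 0 were apart downward, where 0.0776% were. Both stabilized intervals lay above both other intervals in 2 of the 30, Col5a3 and Col18a1, against 0.540% of tested genes, and in Col3a1, Col6a3 and Itga1 among the lower genes.

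A wider count took the order of the 4 values alone. Both stabilized libraries lay above both others in 19 of the 30 genes, against 29.2% of tested genes, and below both others in 3, against 23.9%. These 3 were Col20a1, Itga4 and Itgb8. Among the 44 lower genes 23 had both stabilized libraries on top, against 20.0% of genes of that range. Most of these differences were small: the deposited intervals overlapped in both pairs in 55 of the 74 genes and in 20 of the 30. Overlap was more frequent among all tested genes, where 1.76% and 1.26% were apart upward in the pairs with and without Ndp. Downward the shares were 1.57% and 0.487%.

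**Figure D1:**
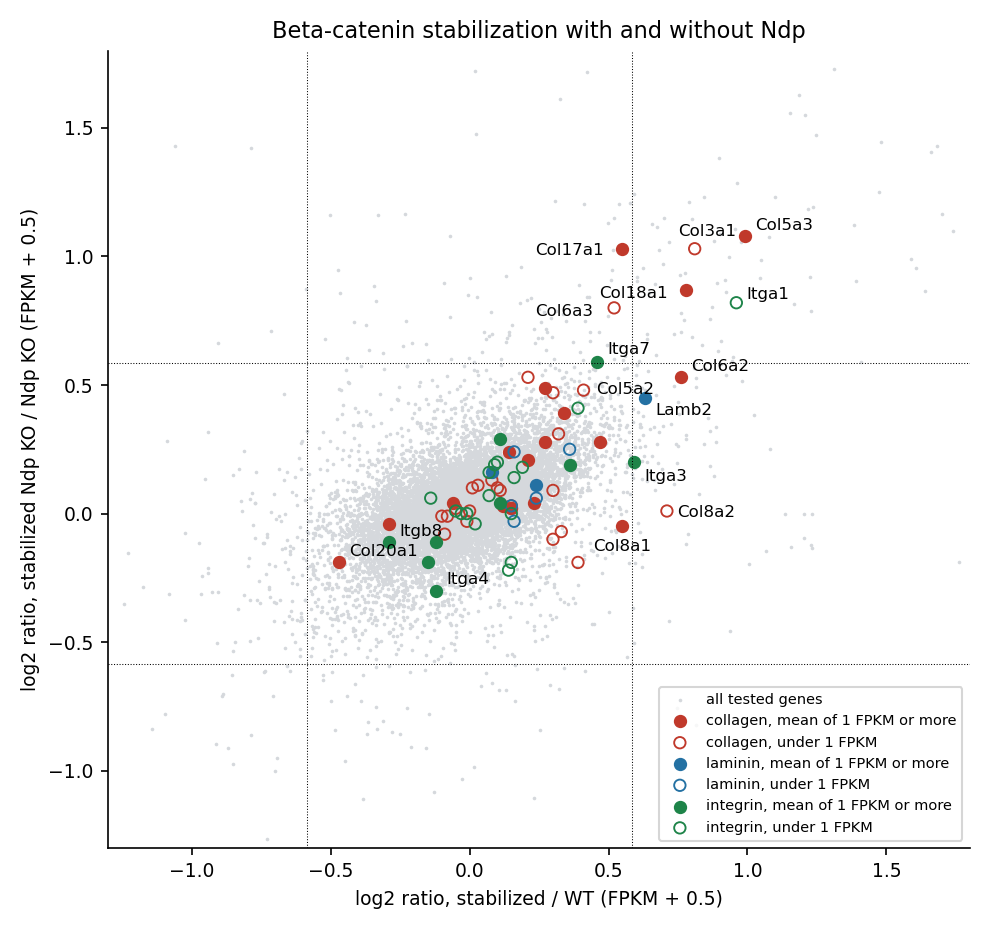
Log2 ratio of FPKM + 0.5 of the stabilized library against WT (x axis) and of the stabilized knockout against the knockout (y axis), with 1 library per genotype. Filled points are member genes with a mean of at least 1 FPKM, open points lower members, grey points all tested genes within the axes, and dotted lines mark 1.5-fold. Col5a3 (0.99 and 1.08) and Col18a1 (0.78 and 0.87) lie beyond 1.5-fold on both axes, with the low genes Col3a1 and Itga1.

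Among the 11 fibrillar collagen genes, Col5a3 had the highest ratios of those at 1 FPKM or more. Col5a3 (chromosome 9, 20770050 to 20815034, mm10) encodes the alpha-3 chain of collagen V, a minor fibrillar collagen. It was at 1.02 FPKM in WT (deposited interval 0.765 to 1.27), 1.04 in the knockout (0.776 to 1.30), 2.51 in the stabilized library (2.03 to 3.00) and 2.76 in the stabilized knockout (2.24 to 3.27). The libraries fell into a low and a high couple with intervals well apart, and Ndp made no visible difference within either. By the deposited values Col5a3 was 2.46 times as high with stabilization in the presence of Ndp and 2.65 times in its absence.

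The other collagen V genes were lower and had smaller ratios. Col5a2 (chromosome 1, 45374331 to 45503282), the alpha-2 chain, was at 0.226 FPKM in WT (0.147 to 0.305), 0.285 in the knockout (0.191 to 0.379), 0.466 in the stabilized library (0.328 to 0.605) and 0.592 in the stabilized knockout (0.424 to 0.760). Its stabilized libraries were 2.07 and 2.08 times as high as their partners. Col5a1, the alpha-1 chain, was at 0.627 and 0.658 FPKM without stabilization and at 0.889 and 1.11 FPKM with it, with intervals apart in the pair without Ndp. All 3 genes of collagen V thus had both stabilized libraries on top.

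Col3a1 (chromosome 1, 45311538 to 45349706), the chain of the vessel-wall collagen III, had the largest proportional difference of the 8 genes and the lowest WT level. It was at 0.0958 FPKM in WT (0.0526 to 0.139), 0.267 in the knockout (0.173 to 0.361), 0.544 in the stabilized library (0.382 to 0.707) and 1.06 in the stabilized knockout (0.788 to 1.34). All 4 intervals were apart from each other, and each change of genotype went with a higher value. Stabilized libraries were 5.68 and 3.97 times as high as their partners, and the log2 ratios of 0.81 and 1.03 understate this. The libraries without Ndp were 2.79 and 1.95 times as high as those with it, in contrasts that also differ in Xist. Col3a1 stayed under the mean of 1 FPKM and is therefore in none of the counts over the 30 genes.

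Collagen I, the commonest collagen of connective tissue, did not follow in the same way. In the order WT, knockout, stabilized, stabilized knockout, which is kept from here on, Col1a2 was at 1.87, 1.83, 2.49 and 2.56 FPKM, with log2 ratios of 0.34 and 0.39 and overlapping intervals. Its partner chain Col1a1 was at 0.107, 0.210, 0.261 and 0.175 FPKM, higher in the stabilized library than in WT, with intervals apart, and not in the stabilized knockout against the knockout, with a log2 ratio of -0.07. Col27a1, a cartilage-type fibrillar chain, was at 1.52, 1.40, 1.95 and 2.17 FPKM, with intervals apart in the pair without Ndp. Col2a1, Col11a1 and Col11a2, the chains of cartilage and vitreous fibrils, are given below with the abundant genes. The last of the 11, Col24a1, was between 0.443 and 0.561 FPKM.

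Of the 2 multiplexins, collagens of vascular basement membranes whose C-terminal fragments include endostatin, Col18a1 was the abundant one. Col18a1 (chromosome 10, 77052179 to 77166530) was at 3.19 FPKM in WT (2.57 to 3.81), 3.69 in the knockout (3.02 to 4.37), 5.85 in the stabilized library (4.92 to 6.78) and 7.18 in the stabilized knockout (6.13 to 8.24). Both stabilized intervals lay above both others. The values were 1.83 and 1.95 times those of the partner libraries. Col15a1, the other multiplexin, was at 0.479, 0.713, 0.719 and 1.01 FPKM. Its stabilized knockout interval (0.740 to 1.28) was apart from that of WT (0.331 to 0.627), but those within each stabilization pair overlapped.

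Collagen VI forms beaded filaments around vessels and muscle from an alpha-1, an alpha-2 and an alpha-3 or related chain. Its 3 main chains differed in level, and by the deposited values the lower the chain was, the larger was its ratio. Col6a1 (chromosome 10, 76708792 to 76726044), the most abundant, was at 14.2 FPKM in both libraries without stabilization and at 17.3 FPKM in both with it, with overlapping intervals and log2 ratios of 0.27 and 0.28. Col6a2 (chromosome 10, 76595756 to 76623404) was at 1.79 FPKM in WT (1.35 to 2.23), 2.35 in the knockout (1.81 to 2.90), 3.38 in the stabilized library (2.68 to 4.08) and 3.62 in the stabilized knockout (2.90 to 4.35). The ratio was 0.76 with Ndp intact and 0.53, just short of 1.5-fold, without Ndp, where the intervals were only just apart.

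Col6a3 (chromosome 1, 90766860 to 90843971) was far lower than its partner chains and had larger ratios of the deposited values. It was at 0.124 FPKM in WT (0.0794 to 0.168), 0.176 in the knockout (0.107 to 0.245), 0.397 in the stabilized library (0.280 to 0.514) and 0.674 in the stabilized knockout (0.515 to 0.833). Stabilized libraries were 3.21 and 3.82 times as high as their partners. The alternative chains Col6a4, Col6a5 and Col6a6 were at no more than 0.634 FPKM in any library and had overlapping intervals.

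The network-forming collagen VIII showed a different pattern. Col8a1 was at 1.88 FPKM in WT (1.44 to 2.31), 2.33 in the knockout (1.82 to 2.84), 2.97 in the stabilized library (2.37 to 3.57) and 2.23 in the stabilized knockout (1.73 to 2.72). Col8a2 was at 0.640, 0.838, 1.37 and 0.846 FPKM. Each of the chains was thus highest in the stabilized library, with intervals apart from WT, and about level between the stabilized knockout and the knockout (log2 ratios of -0.05 and 0.01). The stabilization ratio without Ndp minus that with Ndp was -0.60 for Col8a1 and -0.71 for Col8a2, a difference that was not tested. Some markers of the retinal pigment epithelium, a tissue that adjoins the retina, moved in the same libraries and others did not. Of 8 tested markers 3 were 1.5-fold higher in the stabilized library than in WT and 0 in the pair without Ndp. The shares of all tested genes were 1.67% and 1.76%. The median log2 ratios of the markers were 0.17 and -0.13. Rpe65 was at 2.90, 3.45, 5.09 and 2.45 FPKM, while Tyr, Dct and Rlbp1 had log2 ratios of -0.24, -0.07 and -0.18 in the stabilized library against WT. The sum of the 9 listed markers, most of it from Rlbp1, was 239, 236, 231 and 212 FPKM, and none was at 0. Rlbp1 was also on the list of markers of Muller glia, cells of the retina itself. Its ratio and the sum are therefore not specific to the pigment epithelium. The part of these markers in the collagen VIII values was not tested. The last network collagen, the cartilage chain Col10a1, was under 0.2 FPKM throughout.

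Among the transmembrane collagens, Col17a1 (chromosome 19, 47646341 to 47692042), best known from the hemidesmosomes of epithelia, differed along both contrasts. It was at 3.66 FPKM in WT (3.01 to 4.32), 2.03 in the knockout (1.59 to 2.47), 5.61 in the stabilized library (4.71 to 6.51) and 4.67 in the stabilized knockout (3.89 to 5.46). The knockout interval lay below the other 3, and WT lay between the knockout and the stabilized library. Stabilization went with log2 ratios of 0.55 with Ndp and 1.03 without, and the knockout was at -0.72 against WT. No other gene of the 30 was 1.5-fold lower in the knockout, where 1.22% of all tested genes were, or had its interval apart downward there, where 0.327% did. Of the epithelial partners of Col17a1 in hemidesmosomes, the integrin Itgb4 was at 0.0898 to 0.146 FPKM and Lamb3 at 0.0289 to 0.0900. These levels are too low to show whether either accompanied Col17a1.

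The other transmembrane collagens were flat. Col23a1 was at 15.6, 15.7, 15.0 and 16.1 FPKM. Col25a1, expressed by neurons, was at 2.11, 2.06, 2.57 and 2.13 FPKM, and Col13a1 was between 0.353 and 0.502 FPKM. All intervals overlapped within the stabilization pairs.

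**Figure D2:**
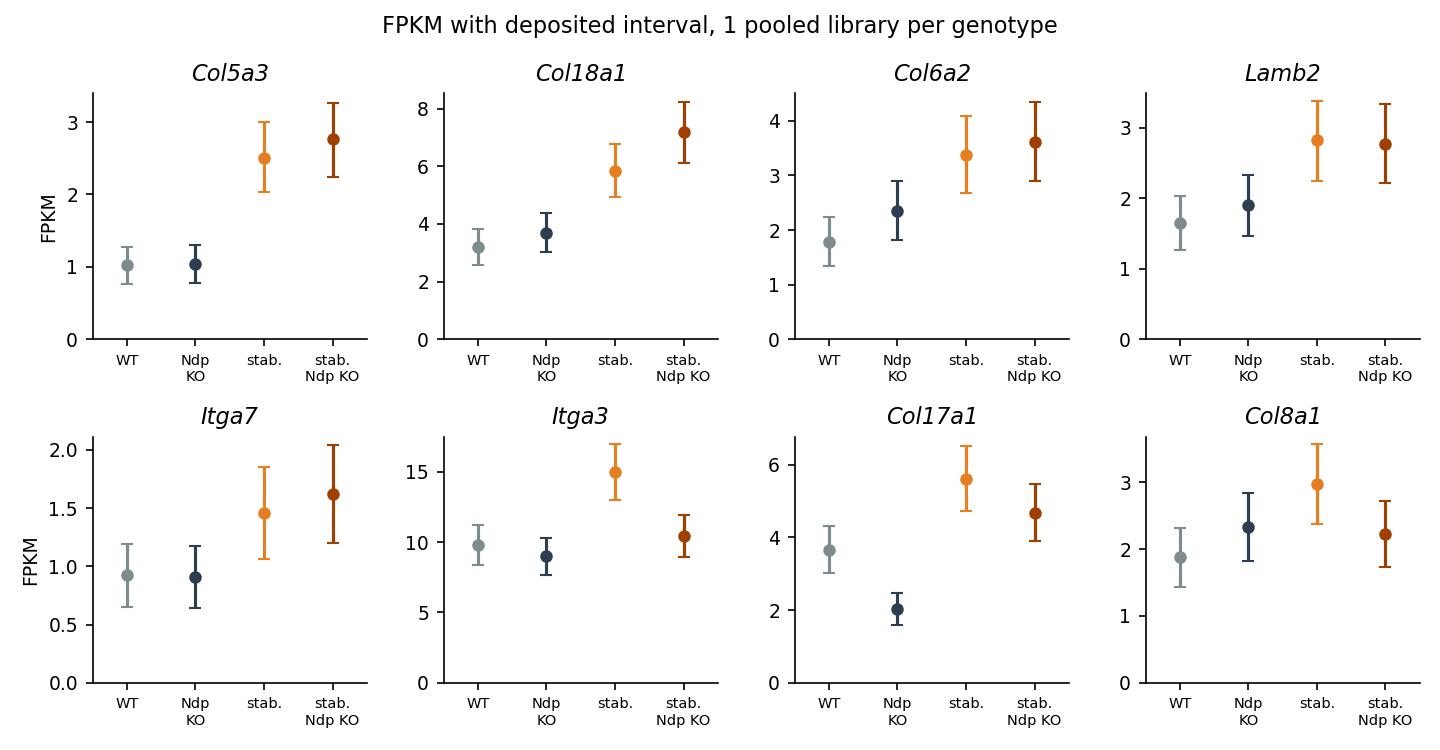
FPKM (y axis, from 0) of 8 genes in the 4 libraries (x axis), with the deposited interval as bars and 1 pooled library per point. Col5a3, Col18a1 and Col6a2 form a low and a high couple by stabilization, Col17a1 is lowest in the knockout at 2.03 FPKM, and Itga3 and Col8a1 are highest in the stabilized library, with the interval apart from the other 3 in Itga3 and from WT alone in Col8a1.

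The fibril-associated collagens, led by collagen IX, did not follow stabilization. Collagen IX is a heterotrimer that coats the collagen II fibrils of vitreous and cartilage. Col9a1 was at 30.8 FPKM in WT (26.9 to 34.7), 33.1 in the knockout (29.0 to 37.3), 25.1 in the stabilized library (21.9 to 28.3) and 32.1 in the stabilized knockout (28.1 to 36.2). Its partner chains were at 4.61 to 6.66 FPKM for Col9a2 and 9.07 to 10.6 FPKM for Col9a3, with all intervals overlapping within each pair. Col20a1 was at 2.95, 3.00, 1.99 and 2.57 FPKM and had the lowest stabilization ratio of the 30 genes with Ndp intact, -0.47, with intervals that overlapped. Of the 5 genes of this class under 1 FPKM, Col12a1 was the highest, at 0.838 to 0.923 FPKM. Col16a1, at 0.570, 0.308, 0.736 and 0.670 FPKM, was the 1 gene of the class with intervals apart, upward, in the pair without Ndp.

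Among collagen IV chains other than the left-out alpha-1 and alpha-2, none was higher with stabilization on both Ndp backgrounds with intervals apart. Col4a5, which lies on the X chromosome, was at 1.91, 2.19, 2.29 and 2.60 FPKM, and its neighbour Col4a6 at 0.208 to 0.319 FPKM, with overlapping intervals. Col4a3 and Col4a4, the chains of specialised basement membranes, were at 0.270, 0.535, 0.510 and 0.406 FPKM and at 0.153, 0.234, 0.304 and 0.185 FPKM. Col4a3 was thus lowest in WT, with intervals apart from the knockout and the stabilized library, and the log2 ratio of the stabilized knockout to the knockout was -0.19. The left-out chains on the same scale had log2 ratios of 1.70 and 1.16 (Col4a1) and 1.59 and 0.99 (Col4a2) in the pairs with and without Ndp. The remaining collagen genes were low, Col7a1 of anchoring fibrils at 0.753 to 0.831 FPKM and Col28a1 at 0.0563 to 0.115 FPKM.

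Of the 8 laminin genes, Lamb2 had the highest ratios among the 3 at 1 FPKM or more. Lamb2 (chromosome 9, 108479862 to 108490530), the beta-2 chain of mature vascular and retinal basement membranes, was at 1.65 FPKM in WT (1.27 to 2.03), 1.90 in the knockout (1.47 to 2.33), 2.82 in the stabilized library (2.25 to 3.38) and 2.77 in the stabilized knockout (2.22 to 3.33). Its stabilized libraries were alike and stood above the others, with intervals apart in the pair with Ndp and overlapping in the pair without. The log2 ratios were 0.63 and 0.45. Lama5, the second endothelial alpha chain, was at 1.08, 1.26, 1.36 and 1.41 FPKM and Lama1, a chain of the inner limiting membrane, at 1.95, 1.84, 2.08 and 2.10 FPKM. Neither had intervals apart. For comparison, the left-out Lama4, Lamb1 and Lamc1 had ratios of 1.22, 0.90 and 0.84 with Ndp.

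The 5 lower laminin genes reached at most 0.542 FPKM, in Lamc3, and none had intervals apart in a stabilization pair. Lama2, an alpha chain around pericytes and muscle, was at 0.188, 0.202, 0.267 and 0.326 FPKM, and Lamc3 at 0.311, 0.279, 0.542 and 0.425 FPKM. In 6 of the 8 laminin genes both stabilized libraries lay above both others.

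Among integrins, the receptor subunit that followed stabilization most was Itga1 (chromosome 13, 114958081 to 115101964), which pairs with the beta-1 subunit to bind collagens, collagen IV above all. It was at 0.360 FPKM in WT (0.184 to 0.537), 0.254 in the knockout (0.109 to 0.400), 1.18 in the stabilized library (0.837 to 1.52) and 0.834 in the stabilized knockout (0.555 to 1.11). Both stabilized intervals lay above both others. The stabilized libraries were 3.27 and 3.28 times as high as their partners, a near equal factor on both Ndp backgrounds. Itga1 shares its deposited locus with Pelo, so fragments of the 2 genes may not be fully separated. Pelo itself was at 5.73, 6.37, 6.39 and 5.91 FPKM, without that pattern.

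No other collagen-binding alpha subunit did the same. Itga2, which lies 26.0 kb from Itga1, was at 0.367, 0.332, 0.425 and 0.452 FPKM. Itga10 was at 0.346, 0.450, 0.433 and 0.317 FPKM and Itga11 under 0.1 FPKM. Intervals of these 3 overlapped in both stabilization pairs.

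**Figure D3:**
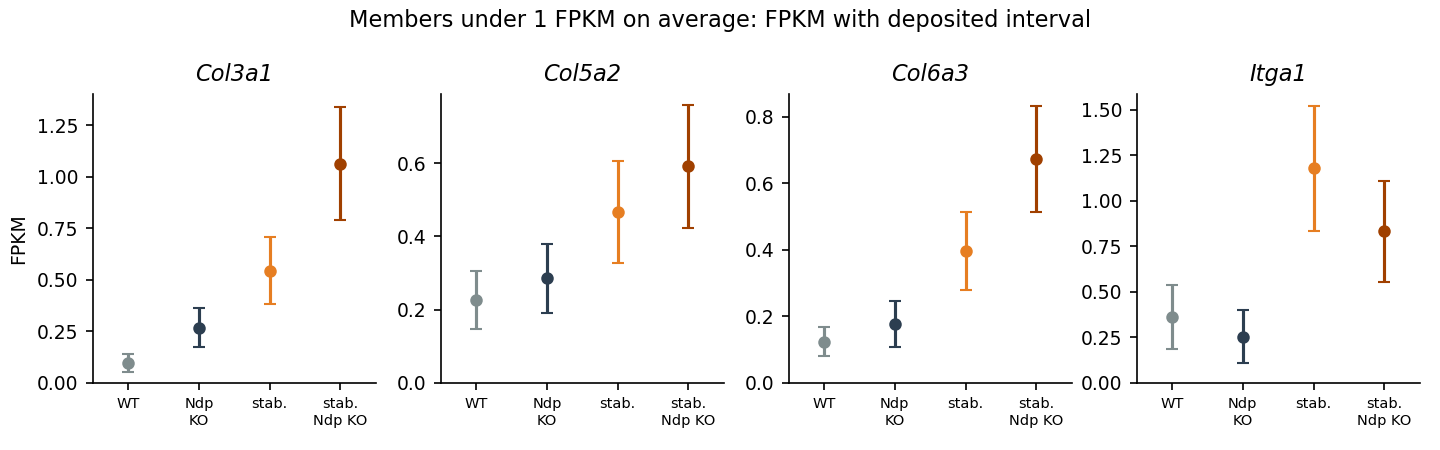
FPKM (y axis, from 0, own scale per gene) in the 4 libraries (x axis) of the 4 members under 1 FPKM on average whose deposited intervals, drawn as bars, are apart upward in both stabilization pairs. Col3a1 and Col6a3 are highest in the stabilized knockout and Itga1 in the stabilized library.

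The laminin-binding alpha subunits were all somewhat higher with stabilization. Itga7 was at 0.921 FPKM in WT (0.654 to 1.19), 0.906 in the knockout (0.640 to 1.17), 1.46 in the stabilized library (1.06 to 1.85) and 1.62 in the stabilized knockout (1.20 to 2.04). Its log2 ratios were 0.46 and 0.59, the second just at 1.5-fold and the first short of it. Itga6, an endothelial laminin receptor, was at 2.60, 2.72, 3.48 and 3.16 FPKM with overlapping intervals.

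Itga3 (chromosome 11, 95044482 to 95076714) was highest in the stabilized library, as the collagen VIII chains were. It was at 9.80 FPKM in WT (8.40 to 11.2), 9.01 in the knockout (7.68 to 10.3), 15.0 in the stabilized library (13.0 to 17.0) and 10.4 in the stabilized knockout (8.95 to 11.9). The stabilized library stood above the other 3 with its interval apart from each. The log2 ratio was 0.59 with Ndp and 0.20 without. Some of the pigment epithelium markers given above were higher in the same library and others were not. Of 16 tested retinal neuron markers 2, Pou4f1 (0.62) and Pou4f2 (0.66), were 1.5-fold higher there than in WT, against 1.67% of all tested genes. The median of that list was 0.06. In the pair without Ndp 0 were higher, with Pou4f1 at 0.20 and Pou4f2 at 0.13. The part of either list in the Itga3 or collagen VIII values was not tested.

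Subunits for other ligands had overlapping intervals within both stabilization pairs, and their values differed in direction. Itgav, the alpha subunit of vitronectin and fibronectin receptors, was at 6.33, 7.44, 5.76 and 6.84 FPKM and its partners Itgb5 and Itgb8 at 20.3, 21.3, 22.0 and 21.9 FPKM and at 5.05, 4.51, 4.02 and 4.12 FPKM. The classical angiogenic partner Itgb3 was at only 0.195 to 0.299 FPKM. Itga5, the fibronectin receptor of sprouting endothelium, was at 0.537, 0.648, 0.861 and 1.03 FPKM, with log2 ratios of 0.39 and 0.41 and intervals that overlapped within both pairs. By the deposited values Itga5 was 1.60 and 1.59 times as high with stabilization, and its stabilized knockout interval was apart from that of WT. Itga8 and Itga2b were under 0.5 FPKM. Itga4 was at 17.4, 18.3, 16.0 and 14.8 FPKM, but its deposited locus overlaps the retinal gene Cerkl (26.8, 28.2, 20.9 and 21.4 FPKM), so its values are uncertain. Itga9 was at 1.48, 1.82, 1.29 and 1.53 FPKM.

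Itgb1, the common beta subunit of the collagen and laminin receptors, was at 22.6, 22.0, 24.4 and 27.0 FPKM with overlapping intervals. Of the other beta subunits Itgb4 and Itgb6 were under 0.2 FPKM. Leukocyte subunits were low in every library: Itgb2 was at 0.289, 0.358, 0.378 and 0.357 FPKM, Itgax at 0.204, 0.215, 0.279 and 0.127 FPKM, and Itgal, Itgae, Itgad and Itgb7 under 0.2 FPKM.

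The 12 most abundant genes of the 74 are those with the highest mean FPKM, and 9 of them had overlapping intervals in both stabilization pairs. Overlap was more frequent among all tested genes, by the shares given above. The exceptions among the 12 were Col18a1, Itga3 and Col2a1. Col2a1 (chromosome 15, 97975602 to 98004724), the fibrillar chain of vitreous and cartilage, was the most abundant of all. It was at 26.5 FPKM in WT (22.7 to 30.4), 31.6 in the knockout (26.9 to 36.3), 37.0 in the stabilized library (31.3 to 42.7) and 38.3 in the stabilized knockout (32.7 to 44.0). WT was lowest, and its interval was apart from those of both stabilized libraries but not from that of the knockout. The log2 ratios were 0.47 and 0.28. Its fibril partners Col11a1 (1.69 to 1.89 FPKM) and Col11a2 (1.98 to 2.29 FPKM) were flat.

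**Figure D4:**
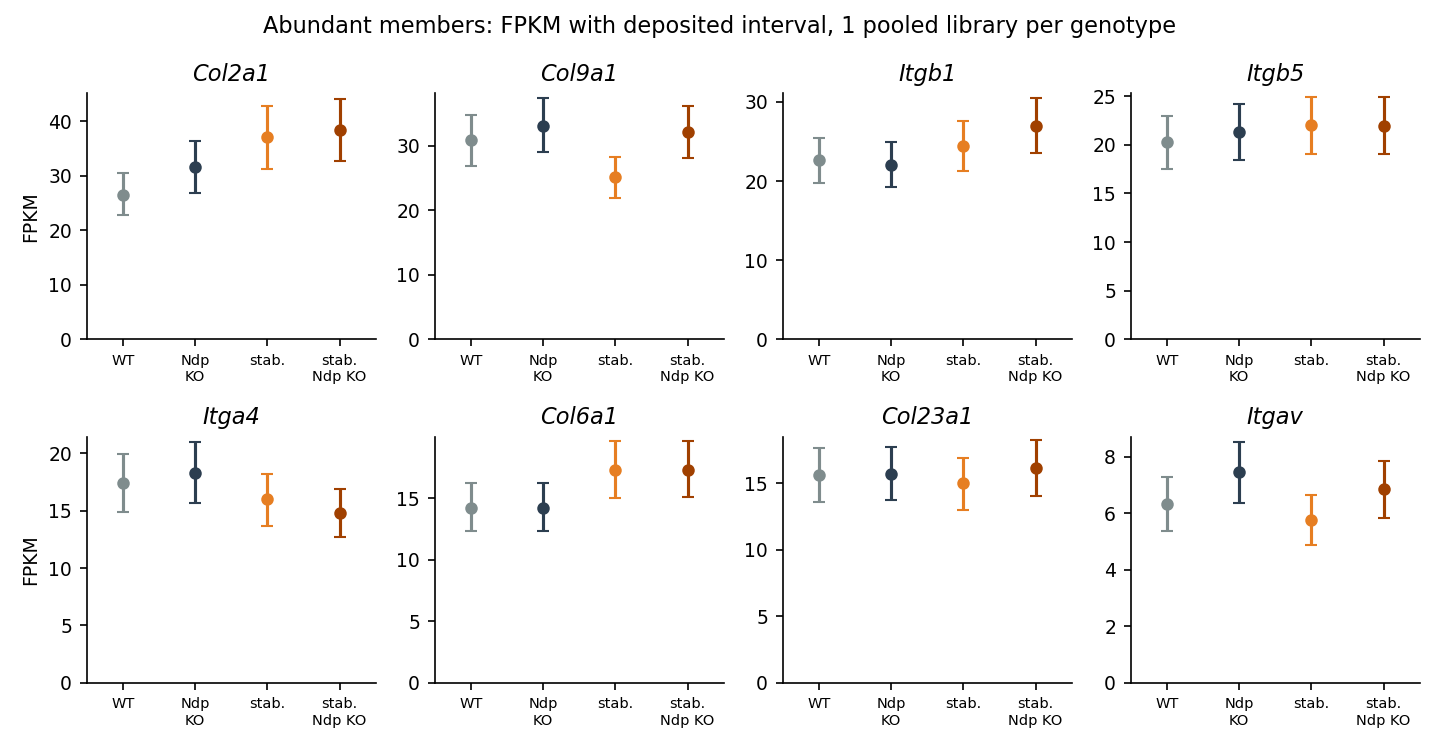
FPKM (y axis, from 0) of 8 of the 12 most abundant members in the 4 libraries (x axis), with deposited intervals as bars. The 8 are a choice and not those of highest mean: Itga3 and Col18a1, which had intervals apart, are not among them. Intervals overlap within both stabilization pairs in every panel except Col2a1, where WT (26.5 FPKM) lies apart from the stabilized library (37.0 FPKM).

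Several cell marker lists moved in the same libraries. Among all tested genes 1.67% and 1.76% were 1.5-fold higher and 1.71% and 0.920% lower in the pairs with and without Ndp. Of 9 tested endothelial markers 5 were 1.5-fold higher in the stabilized library than in WT. In the stabilized knockout against the knockout 7 were. Their summed level over 10 genes was 55.0, 55.1, 77.8 and 79.3 FPKM. Most of it came from Kdr (39.0, 39.9, 47.7 and 45.7 FPKM), with log2 ratios of only 0.29 and 0.20. Emcn was lower in both pairs (-0.36 and -0.30). Of 6 tested markers of mural cells (pericytes and smooth muscle) 4 were higher in each pair, with sums over 9 genes of 23.5, 15.8, 37.0 and 34.8 FPKM. The mural Acta2, Notch3 and Abcc9 and the endothelial Tie1, called in both pairs, were under 1 FPKM in both libraries without stabilization. They reached the mean of 1 FPKM only through the stabilized libraries, which favours upward calls. Col5a3, Col18a1, Col6a3 and Itga1 thus moved in the same libraries as vessel markers, whose part was not tested. Red cell (erythroid) markers were higher in 4 and 3 of 4 tested genes, with sums over 5 genes of 69.8, 75.5, 164 and 176 FPKM. Of 4 tested astrocyte markers 2 were higher and 1 lower in the pair with Ndp and 1 was higher in the pair without, with sums over 5 genes of 16.2, 20.0, 22.4 and 27.6 FPKM. The part of these lists was not tested either. In whole-retina RNA more cells of a type and more RNA per cell cannot be told apart. Fibroblast and ocular surface markers summed to between 11.0 FPKM in WT and 19.8 FPKM in the stabilized knockout over 10 genes, mostly Mgp. Of the 2 tested markers, Mgp was at 8.00, 10.5, 9.51 and 16.9 FPKM, highest in the stabilized knockout as Col3a1 was. The other, Pdgfrl, was at 1.89, 1.83, 1.01 and 1.55 FPKM, lower with stabilization in both pairs. Among the low markers Fmod was at 0.130, 0.225, 0.409 and 0.385 FPKM and Pi16 at 0.269, 0.250, 0.0708 and 0.228 FPKM. Dcn was at no more than 0.0683 FPKM, Lum was listed at 0 in 3 libraries and Kera in all 4. The part of this list in the Col3a1 values was not tested. For the leukocyte integrins, the summed 8 microglial markers were at 20.0 to 24.2 FPKM. The 4 T and myeloid leukocyte markers summed to 0.377, 0.332, 1.62 and 1.18 FPKM, with S100a9 at 0.0450, 0.0831, 1.05 and 0.470 FPKM and Cd3e listed at 0 in every library.

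Few of the 74 genes differed with Ndp genotype, and few of all tested genes did. In the knockout against WT, 0 of the 30 genes were 1.5-fold higher (0.966% of all tested genes) and 1 was lower (1.22%), Col17a1. In the stabilized knockout against the stabilized library, 0 were higher (0.981%) and 0 lower (0.692%). By intervals 0 of the 30 were apart upward and 1 downward in the knockout against WT, beside 0.433% and 0.327% of tested genes. In the stabilized knockout against the stabilized library 0 were apart upward and 1 downward, beside 0.312% and 0.213%. Deposited intervals overlapped in both of these pairs in 69 of the 74 genes. The other 5 were Col17a1, lower in the knockout than in WT, Itga3, lower in the stabilized knockout than in the stabilized library, Col4a3, higher in the knockout than in WT, Col6a3, higher in the stabilized knockout than in the stabilized library, and Col3a1, higher in both. All of these contrasts also differ in Xist and Ddx3y.

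The stabilized knockout against WT, which carries both changes and shares its libraries with the other comparisons, had 4 of the 30 genes 1.5-fold higher, against 1.79% of tested genes, and 0 lower, against 1.07%. By intervals 6 were apart upward, against 2.02%. The 4 were Col5a3 (1.10), Col18a1 (1.06), Col6a2 (0.85) and Lamb2 (0.61). Col17a1 was at 0.31 there, with 4.67 FPKM in the stabilized knockout beside 3.66 in WT and 2.03 in the knockout.

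**Figure D5:**
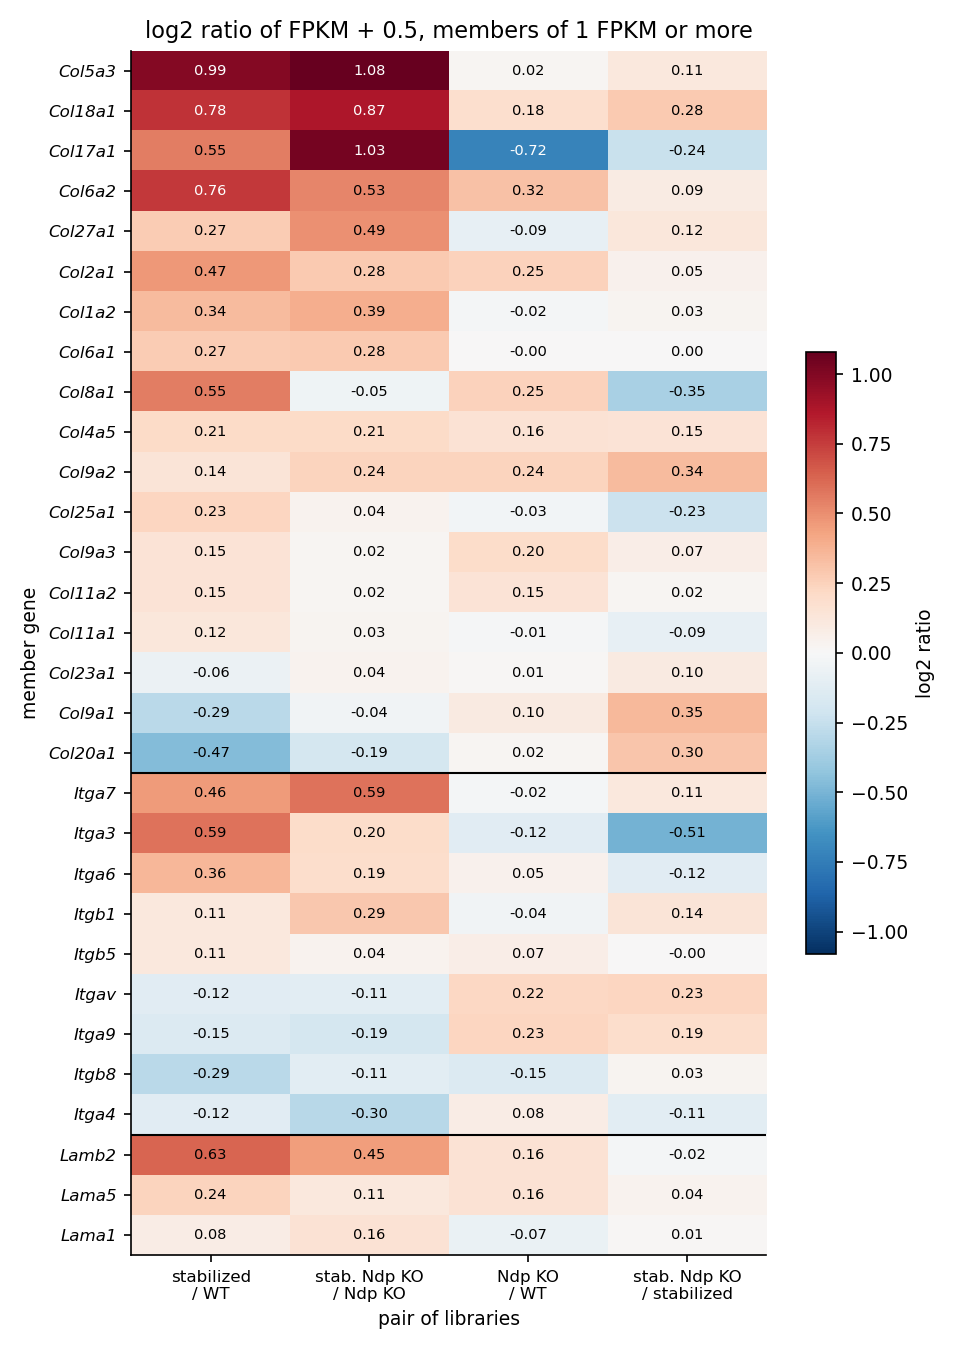
Log2 ratio of FPKM + 0.5 for the 30 members with a mean of at least 1 FPKM (rows, ordered within collagens, integrins and laminins by their mean stabilization ratio) in 4 pairs of libraries (columns). The largest values sit in the first 2 columns, and Col17a1 (-0.72) is the 1 member past 1.5-fold for loss of Ndp.

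Other genes of matrix handling were taken from lists drawn up by function, with earlier results of these data known. In the list of collagen biosynthesis and crosslinking, such as prolyl hydroxylases, the chaperone Serpinh1 and lysyl oxidases, 0 of 18 tested genes were 1.5-fold higher in the stabilized library than in WT and 2 in the pair without Ndp, with none lower, beside 1.67% and 1.76% higher among all tested genes. The median ratios were 0.13 and 0.11. Serpinh1 was at 22.5, 21.1, 24.1 and 28.4 FPKM. In the list of integrin adaptors 0 of 20 tested genes were higher in either pair and 1, the caveolin gene Cav1, was lower in the pair with Ndp. Both medians were 0.15. The counts of 0 are near the share of all tested genes.

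Non-collagen matrix and other matrix receptors moved more. Of 22 tested genes 8 were 1.5-fold higher with stabilization in the presence of Ndp and 5 in its absence, beside the same 1.67% and 1.76% of all tested genes, and 0 were lower. Those higher in both pairs included Nid1 (1.66 and 1.41) and Nid2 (1.22 and 0.92), which link laminin to collagen IV. The others were the heparan sulfate proteoglycan Hspg2 (1.17 and 0.81), the fibronectin gene Fn1 (1.23 and 0.79) and Spp1 (0.68 and 2.03). Without stabilization Nid2 was at 0.552 and 0.667 FPKM and Hspg2 at 0.447 and 0.645 FPKM, in WT and the knockout. Both genes reached the mean of 1 FPKM only through the stabilized libraries, which favours upward calls. Spp1, the gene of the secreted integrin ligand osteopontin, was at 4.77, 1.28, 7.94 and 6.79 FPKM. It was lowest in the knockout, with a log2 ratio of -1.57 against WT. Fn1 was at 5.35, 8.60, 13.2 and 15.2 FPKM, and its main receptor subunits Itga5 and Itgb1 did not reach 1.5-fold in either pair, although Itga5 did in both (0.59 and 0.60) with a pseudocount of 0.1.

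Position and promoter sequence were read for the members as a description. Neighbours on a chromosome did not always move together. Col3a1 and Col5a2 lie 24.6 kb apart on chromosome 1 and had intervals apart upward in both pairs. Col6a1 and Col6a2 lie 85.4 kb apart on chromosome 10 with ratios of 0.27 and 0.76 with Ndp, and Itga1 and Itga2 differed likewise (0.96 and 0.09).

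Beta-catenin acts on genes through TCF/LEF factors, whose consensus letters are CTTTGAA and CTTTGAT. These letters were searched on both strands in RefSeq promoters (GRCm38.p6, the assembly of mm10), from 250 bases before to 50 after the start. They occurred in 8.65% of all 32851 promoters of the table and in 7 of 60 promoters of the members, which covered 54 of the 74 genes. Of the 8 genes with intervals apart upward in both pairs 7 had a promoter in the table, with 9 promoters between them. The letters were in 2 of these 9, that of Itga1 and 1 of the 2 of Col6a2. The other Col6a2 promoter held none. A match is not a bound site, and its absence from this window says nothing of the factor. The 250 bases before the start are shown for both matching genes, with the matching letters in capitals, and for Col5a3, the gene of highest ratio in both pairs among those at 1 FPKM or more, which held none. The Itga1 window is at chr13:115101965-115102214, that of Col6a2 (the upstream one of its 2 starts, outside the deposited locus) at chr10:76623631-76623880 and that of Col5a3 at chr9:20815068-20815317, all on the minus strand and written 5′ to 3′.
Itga1: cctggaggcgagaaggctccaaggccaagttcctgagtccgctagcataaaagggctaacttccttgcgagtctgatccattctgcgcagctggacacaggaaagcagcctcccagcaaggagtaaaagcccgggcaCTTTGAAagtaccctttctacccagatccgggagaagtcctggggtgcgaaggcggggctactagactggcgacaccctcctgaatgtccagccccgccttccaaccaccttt
Col6a2: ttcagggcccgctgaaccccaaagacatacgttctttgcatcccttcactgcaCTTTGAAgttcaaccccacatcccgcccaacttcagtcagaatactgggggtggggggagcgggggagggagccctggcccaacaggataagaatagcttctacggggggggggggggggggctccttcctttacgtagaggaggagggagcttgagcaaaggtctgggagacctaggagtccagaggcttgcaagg
Col5a3: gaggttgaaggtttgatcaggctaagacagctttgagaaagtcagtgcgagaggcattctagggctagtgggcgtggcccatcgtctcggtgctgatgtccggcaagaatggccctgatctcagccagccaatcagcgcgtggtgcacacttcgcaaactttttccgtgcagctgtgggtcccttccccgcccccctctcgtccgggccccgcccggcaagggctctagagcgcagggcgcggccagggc
The match lay at -113 from the start in Itga1 and at -197 in Col6a2, both on the strand of the gene.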

How the data were processed

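The authors deposited 1 table of FPKM with a lower and an upper bound per gene and library. Per the submitters' processing notes, TopHat, Cuffdiff and the mm10 build were used; versions, annotation, strand and read totals: not given in the sources used here. Columns were matched to libraries by the number in the sample description.

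Log2 ratios were computed on FPKM plus 0.5 for genes whose mean reached 1 FPKM and whose status was OK in all 4 libraries, in 5 comparisons of 1 library with 1, and called at 1.5-fold. With 1 library per genotype nothing was tested; an additive model of stabilization and Ndp has 1 residual degree of freedom and was left out. Genes and lists were chosen with earlier results of these data known. Named were every gene at least 1.5-fold apart in a comparison, the 12 of highest mean, low genes with intervals apart in both stabilization pairs, and the highest of each remaining group. The other members are given for completeness, outside that rule. From each other list up to 4 genes 1.5-fold apart in both pairs were named; Spp1, Serpinh1 and Cav1 were named after their values were seen. Of the 74 genes 11 overlap another gene of the table. All 74 were found in GENCODE M21, and coordinates are the deposited loci. The calling step was tested on simulated data. Python 3.11.15, numpy 2.4.6, pandas 2.3.3 and matplotlib 3.10.9 were used.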

Additional observations from a re-analysis of the deposited data

How the results depend on the processing

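Pseudocounts, minimum means, rescaling to the same total, re-centring, inclusion of all statuses, a 2-fold call and intervals apart were tried. Direction cannot change with the pseudocount, which adds the same value to both libraries of a pair. Rescaling and re-centring moved ratios by little, with medians of all tested genes between -0.03 and 0.04. The direction of a ratio of 1.5-fold was therefore fixed in advance under these settings, and only its size could change. The number of the 30 genes higher in the stabilized library than in WT, 5, was 8 with a pseudocount of 0.1, 3 with 1, 0 at 2-fold and 8 by intervals apart. The number higher in both stabilization pairs, 2, was 5 with a pseudocount of 0.1, 0 at 2-fold and 4 by intervals. At 2-fold 2 genes were higher in the stabilized knockout than in the knockout and 2 than in WT, and 0 were lower in the knockout than in WT. By intervals 1 gene was lower in the stabilized knockout than in the stabilized library. With a minimum of 5 FPKM, which left 11 genes, counts higher were 1 (stabilized against WT), 0 (stabilized knockout against knockout), 0 (stabilized knockout against WT) and 0 (both pairs), 0 were lower in the knockout than in WT, and the medians of the first 3 were 0.11, 0.04 and 0.11. With no minimum, over all 74 genes, the same 4 counts were 8, 7, 9 and 4. With a pseudocount of 1, Itga3 (0.57) and Lamb2 (0.53) fell short of 1.5-fold in the stabilized library, like the low Col3a1 (0.50) and Col8a2 (0.53), as did Itga1 (0.55) and Itga7 (0.46) in the stabilized knockout against the knockout. With 0.1, Col6a2 (0.60) passed it there. Rescaling took Itga7 to 0.57 and Col17a1 in the stabilized library to 0.61. No paired analysis was possible because each genotype has 1 library, and leaving out a library leaves no comparison. The deposited intervals of genes under 1 FPKM are wide, and the part of depth was not tested.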

Other observations

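Chains that assemble into the same collagen were present at unequal RNA levels, by FPKM, which is scaled to length. Col1a2 was 17.4, 8.71, 9.56 and 14.6 times as high as Col1a1 in the order WT, knockout, stabilized, stabilized knockout, although type I collagen holds more alpha-1 than alpha-2 chains. Col6a1 was 7.97, 6.04, 5.12 and 4.78 times as high as Col6a2 and 115, 80.6, 43.6 and 25.7 times as high as Col6a3, so the collagen VI chains were nearer to each other in both stabilized libraries. Col9a1 was between 4.83 and 6.69 times as high as Col9a2. Itgb1 was 62.7, 86.5, 20.7 and 32.4 times as high as its partner Itga1. The vitronectin receptor subunit Itgb5 was between 73.3 and 109 times as high as Itgb3.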
